A study of Homo sapiens with 16 samples.

Results

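The genes described here encode the SR proteins, the heterogeneous nuclear ribonucleoproteins (hnRNPs) and the SF3A and SF3B proteins of the U2 small nuclear ribonucleoprotein. Members were chosen by gene symbol, as SRSF or SF3A or SF3B with a number or HNRNP with a letter, without an ending of P and digits that marks a pseudogene. A mean of at least 1 TPM (transcript abundance scaled by transcript length, summing to the same total in every library) over the 16 libraries was also required. Of 57820 gene IDs, 169 carried such a symbol, 125 were left out as pseudogenes and 1, HNRNPCL1, for a mean of 0.0256 TPM. The 43 members were 13 SRSF, 21 HNRNP and 9 SF3A or SF3B gene IDs and held 42 symbols, because SRSF8 was listed under ENSG00000180771 and ENSG00000271885. The members nearest to the minimum were SRSF12 at 5.85 TPM and HNRNPA1L2 at 9.27 TPM, and all 43 passed the filter on low counts that left 15027 genes.

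RNA sequencing was performed on G401, a cell line derived from a kidney rhabdoid tumor with mutant SMARCB1. All groups shared that background. BRD9KO cells carried Cas9 and a guide against BRD9, a bromodomain subunit of the SWI/SNF chromatin remodelling complex, and LacZ cells carried Cas9 and a guide against a bacterial gene that human cells lack. Each guide was sampled on days 1, 2, 3 and 5 with 2 libraries per group. By the study's methods Cas9 cells were kept under blasticidin and guide-carrying cells were selected with puromycin, with no cloning described, and the event from which days were counted is not given in the sources used here. The methods call the 2 libraries biological replicates and do not say that they came from separate cultures, so p-values cover the spread between these libraries.

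SR proteins have RNA recognition motifs and a tail rich in arginine and serine, and they generally promote the use of exons to which they bind. The hnRNPs coat nascent RNA and often repress splice sites, and several also act on the stability, transport or translation of messenger RNA. SF3A and SF3B are parts of the U2 particle that recognises the branch point of each intron. SR proteins and hnRNPs are abundant in dividing cells, and many of them regulate the splicing of their own transcripts.

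Library totals were 9185808 to 16560669 counts in BRD9KO and 11252814 to 15430060 in LacZ. BRD9 stood at 16.6 to 25.9 CPM (reads scaled to a common library total, with TMM normalization) in the 8 BRD9KO and 45.8 to 64.5 CPM in the 8 LacZ libraries, with log2 fold changes of -1.51, -1.34, -1.31 and -1.36 on days 1, 2, 3 and 5 (edgeR, adjusted p of 3.77e-09 or less), so BRD9 RNA was lowered and still detected. SMARCB1 was at 0 to 0.19 TPM. The 6 mesenchymal markers summed to 1831 to 2134 TPM in BRD9KO and 1914 to 2261 TPM in LacZ, mostly from VIM. Of these 6, 5 had a mean of at least 1 TPM and TGFBI did not. The 6 epithelial markers summed to 12.5 to 18.6 and 15.1 to 22.5 TPM, nearly all from MUC1 and CLDN4. These 2 were the epithelial markers with a mean of at least 1 TPM, and KRT5 was at 0. The 5 endothelial markers found summed to at most 0.77 and 0.82 TPM with KDR at 0. The 6 blood markers summed to 63.4 to 139 and 66.8 to 132 TPM, nearly all from the lysosomal gene CD68, with PTPRC, CD3E and HBB among those at 0. Their part in the results was not tested.

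Splicing factor RNAs were abundant, and 3 of the 43 members were already lower in BRD9KO cells on day 1. Of the 21 HNRNP genes, 8 were lower on day 3 and 12 on day 5, when 5.85% and 7.45% of all genes were lower. Calls were made by edgeR's quasi-likelihood test, at an adjusted p under 0.05 over the 15027 genes. On day 1, 3 members were lower and 0 higher, when 0.266% of all genes were lower and 0.273% higher. At an unadjusted p under 0.05, 2 members were higher on day 1, and DESeq2 called 0 higher and 5 lower. On day 2, 2 members were lower and 1 was higher (1.58% and 1.12% of all genes), and on day 3, 10 were lower and 1 was higher (5.85% and 4.59%). On day 5, 16 of 43 members were lower and 0 were higher, against 7.45% and 7.53% of all genes. No member was higher on day 5 at an unadjusted p under 0.05 (0 by edgeR), and DESeq2 and limma called 0 higher there too.

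Changes of a few percent can be called in abundant genes, and 40 of the 43 members were among the 6298 genes over 5 log2 CPM. Within these genes 13.2% were lower on day 5 and 11.1% on day 3. All 16 members called lower on day 5 and the 10 called lower on day 3 were among the 40. The changes were small. The median log2 fold change of the 43 members went from -0.03 on day 1 to -0.04, -0.06 and -0.07 on days 2, 3 and 5, while that of all genes tested was furthest from 0 on day 5, at -0.00078. On day 5 both BRD9KO libraries were below both LacZ libraries for 30 members and above for 1, against 27.2% of all genes below and 27.3% above. On days 1, 2 and 3 the members below were 20, 19 and 27, when 20.6%, 21.8% and 25.9% of all genes were below, and the members above were 5, 8 and 4, when 20.4%, 20.7% and 25.3% of all genes were above. Of the members, 24 were called on no day, 10 on 1 day, 5 on 2 days, 3 on 3 days and 1, HNRNPD, on all 4 days. The matching shares of all genes were not counted, so this tally has no background to be read against. Each day had its own LacZ libraries. In these bulk samples fewer cells with a transcript and less of it per cell cannot be told apart.

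**Figure D1:**
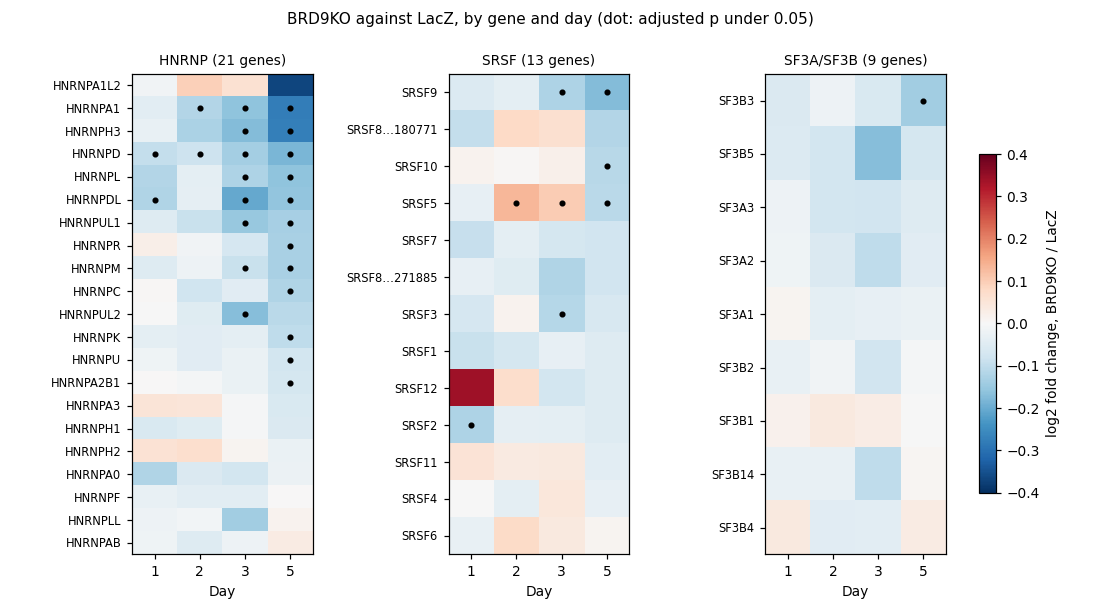
Log2 fold change of each of the 43 members in BRD9KO against LacZ cells (colour, blue lower and red higher) on days 1, 2, 3 and 5 (columns), ordered within family by the day 5 value. Dots mark an adjusted p under 0.05 (edgeR, n = 2 libraries per group). They gather in the upper HNRNP rows on days 3 and 5, where 8 and 12 of 21 genes were lower, against 5.85% and 7.45% of all genes.

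By family, the HNRNP genes held most of the calls. On day 5, 12 of 21 HNRNP, 3 of 13 SRSF and 1 of 9 SF3A or SF3B genes were lower, and the family medians were -0.11, -0.06 and -0.03 on the log2 scale. Of all genes, 7.45% were lower on day 5 and 5.85% on day 3. Of the genes over 5 log2 CPM, 13.2% and 11.1% were lower on those days. On day 3 the counts lower were 8, 2 and 0, and the SF3A and SF3B count of 0 came with 3 genes at an unadjusted p under 0.05 and 0 called by DESeq2 or limma. The HNRNP median was -0.03 on day 1, -0.04 on day 2 and -0.07 on day 3. The SF3A and SF3B median was -0.02, -0.04 and -0.08 on those days, so on day 3 it was below the HNRNP median. For SRSF genes the median was -0.03, 0.0044 and -0.03. The difference between the families was not tested. Summed over each family and scaled by length, HNRNP genes held 0.869% and 0.875% of all TPM in the day 5 BRD9KO libraries and 0.939% and 0.952% in the LacZ libraries. HNRNPA1 alone was at a mean of 1892 TPM in BRD9KO and 2221 TPM in LacZ on day 5, so this sum leans on that gene. SRSF genes held 0.237% to 0.239% and 0.248% to 0.253% on that day, and SF3A and SF3B genes 0.140% to 0.141% and 0.142% to 0.148%, none with overlap. The HNRNP share was also lower in both BRD9KO libraries on days 1, 2 and 3, by less than on day 5. Over the time course it moved between 0.911% and 1.00% in the LacZ libraries alone.

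**Figure D2:**
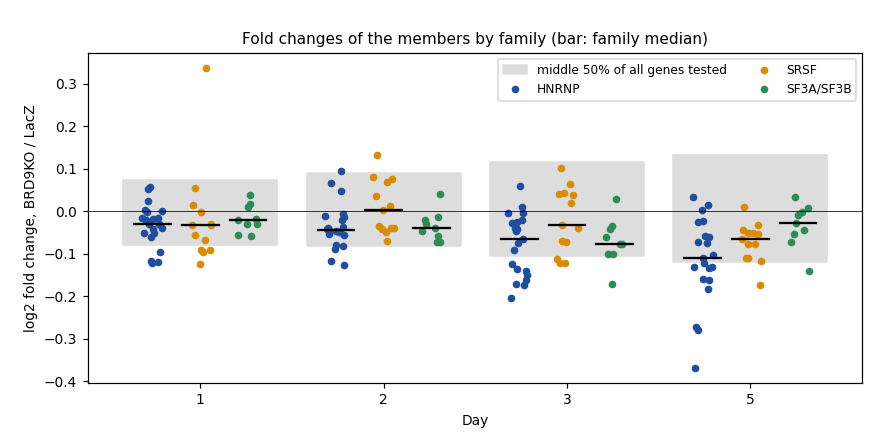
Log2 fold change in BRD9KO against LacZ cells of every HNRNP (blue), SRSF (orange) and SF3A or SF3B (green) member by day, each point a gene, with black bars at the family medians and grey boxes over the middle 50% of the 15027 genes tested. The HNRNP median moved from -0.03 on day 1 to -0.07 on day 3 and -0.11 on day 5. The SF3A and SF3B median was -0.08 on day 3, below that of HNRNP, and -0.03 on day 5.

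**Figure D3:**
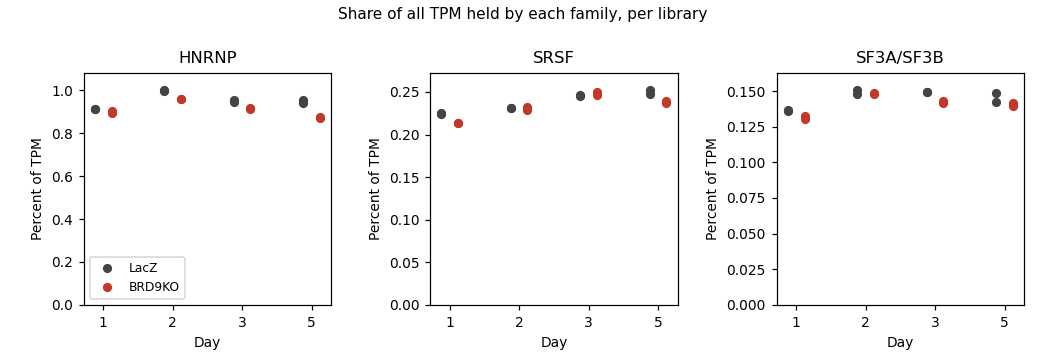
Percent of each library's TPM held by the HNRNP, SRSF and SF3A or SF3B members, 1 point per library, for LacZ (grey) and BRD9KO (red) on each day. The HNRNP points of the day 5 BRD9KO libraries (0.869% and 0.875%) lie below those of LacZ (0.939% and 0.952%). The HNRNP sum leans on its most abundant gene, HNRNPA1.

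HNRNPA1 is the archetypal splicing repressor of the group, which binds exonic and intronic silencers and competes with SR proteins for splice site choice. It lies on chr12:54673977-54680872, plus strand of GRCh37 and was the most abundant member, at a mean of 2136 TPM. On day 1 it stood at 1777 and 1809 CPM in BRD9KO and 1825 and 1869.5 CPM in LacZ libraries, on day 2 at 1561 and 1569.5 against 1705 and 1690.3 CPM, on day 3 at 1526 and 1543 against 1715 and 1719 CPM and on day 5 at 1414 and 1439 against 1699.8 and 1761 CPM. Every BRD9KO library was below both LacZ libraries of its day, and the gap widened with time. The log2 fold change was -0.04 (standard error 0.016, adjusted p = 0.334) on day 1 and -0.12 (standard error 0.016, adjusted p = 0.00024) on day 2. It was -0.16 (standard error 0.016, adjusted p = 1.8e-06) on day 3 and -0.28 (standard error 0.016, adjusted p = 5.29e-10) on day 5 in edgeR, when 82.5% of the control level was left. The falls on days 2, 3 and 5 kept their call in all 26 alternatives, with adjusted p of 5.13e-09 to 0.00613, 2.89e-17 to 0.00461 and 6.01e-50 to 1.88e-05. The effect itself became larger: the mean of days 3 and 5 minus that of days 1 and 2 was -0.14 (standard error 0.016, adjusted p = 1.23e-05) and was called in all 25 alternatives (adjusted p 1.33e-10 to 0.0329), the smallest difference being -0.09 on log2(TPM + 1). By symbol, and with no sequence compared, HNRNPA1 has 76 copies in the gene table, HNRNPA1L2 included, which held 4.21% of the pooled reads. With their reads added to it, a step chosen after seeing the data, it stayed called on day 5 (adjusted p = 2.78e-10).

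HNRNPA1L2, an intronless relative of HNRNPA1 on chr13:53216566-53217908, plus strand, stood at 9.72 and 8.95 CPM in BRD9KO and 12.8 and 11.05 CPM in LacZ libraries on day 5. Both BRD9KO libraries were below both LacZ libraries, and the difference of -0.37 (standard error 0.12, adjusted p = 0.0506) on the log2 scale did not pass the test in edgeR. The posterior SD that RSEM gave for its reads was 6.9% of the count, and the split of reads between it and HNRNPA1, whose coding sequence it resembles closely, is uncertain. HNRNPA2B1, an hnRNP that also sorts RNAs for transport, stood at 1098 and 1104 CPM in BRD9KO and 1142 and 1172 CPM in LacZ libraries on day 5. The groups did not overlap and the difference was small, -0.07 (standard error 0.016, adjusted p = 0.00425) in edgeR. From day 1 to day 5 its mean went from 1096 to 1101 CPM in BRD9KO and from 1095 to 1157 CPM in LacZ. The call held in 23 of 26 alternatives (adjusted p 0.00118 to 0.129). It was lost with limma on TPM at either pseudocount and without replicate 2 of LacZ day 5. It stood at 1084 and 1108 against 1082 and 1109 CPM on day 1 in BRD9KO against LacZ, 1228 and 1219.7 against 1226 and 1234 CPM on day 2 and 1150.4 and 1159 against 1175 and 1178 CPM on day 3, with log2 fold changes of 0.0013, -0.0069 and -0.03, none called. The groups overlapped on days 1 and 2. NFE2L3 and CBX3 share 1207 and 368 exonic bases with HNRNPA2B1 on the opposite strand, at means of 237 and 325 TPM. HNRNPA3, another A-type hnRNP, was at 716 and 726 against 685 and 706 CPM on day 1 in BRD9KO against LacZ, 751 and 764 against 743 and 723 CPM on day 2, 726 and 743 against 744 and 729 CPM on day 3 and 634 and 656 against 666 and 681 CPM on day 5. It was above the controls on days 1 and 2, overlapped them on day 3 and was below them on day 5, with log2 fold changes of 0.05, 0.05, -0.0048 and -0.06, none called (adjusted p = 0.0773 in edgeR on day 5). With its 16 pseudogene copies pooled, which held 1.75% of the reads, HNRNPA3 was called on day 5 (adjusted p = 0.0366). NFE2L2 shares 3509 exonic bases with HNRNPA3 on the opposite strand at a mean of 112 TPM.

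HNRNPD, also called AUF1, binds AU-rich elements and is known for its role in messenger RNA decay, and HNRNPDL is its close paralog, with which it shares a region of chromosome 4 (chr4:83273651-83295656, minus strand, and chr4:83343718-83351615, minus strand). HNRNPD was the member called on every day. It stood at 372 and 368 CPM in BRD9KO and 395 and 396 CPM in LacZ libraries on day 1, 421 and 422 against 442 and 450.3 CPM on day 2, 402 and 403 against 442 and 442 CPM on day 3 and 399.9 and 399.8 against 455 and 451 CPM on day 5. The groups did not overlap on any day. Its log2 fold changes were -0.09 (standard error 0.019, adjusted p = 0.0338), -0.08 (standard error 0.019, adjusted p = 0.0216), -0.14 (standard error 0.019, adjusted p = 8.72e-05) and -0.18 (standard error 0.019, adjusted p = 1.32e-06) in edgeR on days 1, 2, 3 and 5. The call on day 5 held in all 26 alternatives (adjusted p 5.82e-10 to 0.0147) and that on day 3 in 24 (3.36e-05 to 0.0901). The day 1 call held in 16 of 26 alternatives (adjusted p 0.0119 to 0.76) and was lost without any 1 of the 4 day 1 libraries, replicate 1 of LacZ day 3 or replicate 2 of LacZ day 3, and on log2(TPM + 1) it was -0.05 (adjusted p = 0.76 in limma). The day 2 call held in 19 of 26 alternatives (adjusted p 0.0207 to 0.287) and was lost without replicate 1 of BRD9KO day 2, replicate 2 of BRD9KO day 2 or replicate 2 of LacZ day 2.

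HNRNPDL was called lower on days 1, 3 and 5 and was not called on day 2. It stood at 264 and 261 CPM in BRD9KO and 283 and 288 CPM in LacZ libraries on day 1, 328 and 335 against 339 and 341 CPM on day 2, 288 and 294 against 337 and 333 CPM on day 3 and 279.7 and 287 against 313 and 322 CPM on day 5. Every BRD9KO library was below both LacZ libraries of its day. The log2 fold changes were -0.12 (standard error 0.026, adjusted p = 0.0423), -0.04 (standard error 0.025, adjusted p = 0.571), -0.20 (standard error 0.025, adjusted p = 1.88e-05) and -0.16 (standard error 0.025, adjusted p = 0.000172) in edgeR. The effect differed between the days in an F-test over the 4 days, chosen after seeing the data (adjusted p = 0.028), when 5.53% of all genes did. The calls on days 3 and 5 held in all 26 alternatives (adjusted p 2.25e-09 to 0.00118 and 1.95e-05 to 0.00447). The day 1 call held in 17 of 26 alternatives (adjusted p 0.00334 to 0.3) and was lost without any 1 of the 4 day 1 libraries, replicate 2 of LacZ day 2, replicate 1 of LacZ day 3 or replicate 2 of LacZ day 3.

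HNRNPH3 belongs to the H and F group, whose members bind runs of G. It stood at 263 and 261 CPM in BRD9KO and 268 and 266 CPM in LacZ libraries on day 1, 266 and 268 against 299 and 284 CPM on day 2, 209 and 217 against 233 and 246 CPM on day 3 and 198 and 194 against 228 and 245 CPM on day 5. The BRD9KO libraries were below the LacZ libraries on every day, by the most on day 5, when 82.8% of the control level was left. Its log2 fold changes were -0.03 (standard error 0.035, adjusted p = 0.865), -0.13 (standard error 0.035, adjusted p = 0.0608), -0.17 (standard error 0.036, adjusted p = 0.00338) and -0.27 (standard error 0.036, adjusted p = 2.73e-05) in edgeR. The day 5 call held in all 26 alternatives (adjusted p 3.9e-13 to 0.017), and the day 3 call held in 22 of 26 alternatives (adjusted p 1.69e-05 to 0.2) and was lost without replicate 1 of BRD9KO day 3 or replicate 2 of LacZ day 3. Its relatives did not pass the test on any day: on day 5 HNRNPH1 was at -0.06, HNRNPH2 at -0.03 and HNRNPF at 0.0029 on the log2 scale (adjusted p = 0.161, 0.789 and 0.961 in edgeR).

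**Figure D4:**
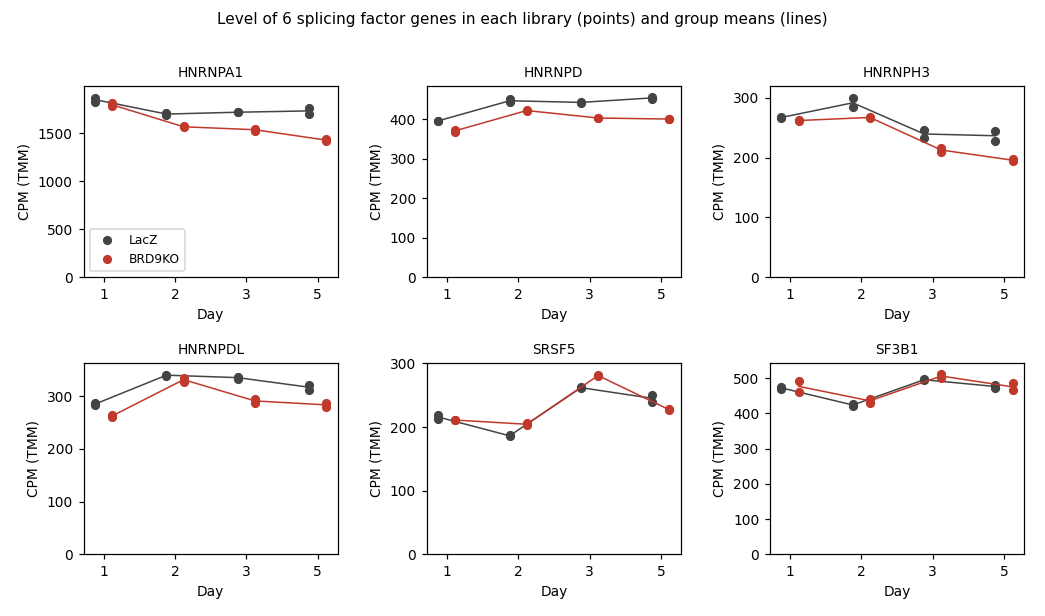
CPM of HNRNPA1, HNRNPD, HNRNPH3, HNRNPDL, SRSF5 and SF3B1 in each library (points, 2 per group) with the group means joined by lines, for LacZ (grey) and BRD9KO (red) on days 1, 2, 3 and 5. HNRNPA1 drew away from its controls with time, to 1414 and 1439 against 1699.8 and 1761 CPM on day 5, SRSF5 crossed its controls, and SF3B1 had overlapping groups on days 1 and 5.

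HNRNPL binds CA repeats and HNRNPM binds GU-rich stretches, and both regulate alternative exons. HNRNPL stood at 417 and 408 against 453 and 441 CPM on day 1 in BRD9KO against LacZ, 439.9 and 461 against 461 and 464 CPM on day 2, 387 and 376 against 427 and 405 CPM on day 3 and 415 and 411 against 471 and 451 CPM on day 5. It was below its controls in every library, and its log2 fold changes were -0.12, -0.04, -0.12 and -0.16 (adjusted p = 0.0902, 0.616, 0.00962 and 0.000607 in edgeR). The day 5 call held in all 26 alternatives (adjusted p 4.31e-07 to 0.035), and the day 3 call held in 22 of 26 alternatives (adjusted p 0.000332 to 0.216) and was lost without replicate 2 of BRD9KO day 3 or replicate 1 of LacZ day 3, at -0.08 without the latter. HNRNPM stood at 438 and 429 against 449.9 and 447 CPM, 474 and 488 against 493 and 483 CPM, 434 and 447 against 466 and 471 CPM and 421 and 424 against 460.2 and 465 CPM on days 1, 2, 3 and 5. The groups overlapped on day 2 only, and the log2 fold changes were -0.05, -0.02, -0.09 and -0.13 (adjusted p = 0.406, 0.751, 0.0102 and 0.000301 in edgeR). AC104534.3 shares 561 exonic bases with HNRNPL on the same strand at a mean of 69.5 TPM. The HNRNPM call on day 3 held in 21 of 26 alternatives (adjusted p 0.00769 to 0.374) and was lost without replicate 1 of BRD9KO day 3, replicate 1 of LacZ day 3 or replicate 2 of LacZ day 3, and that on day 5 in 24 of 26 alternatives (adjusted p 5.53e-05 to 0.173).

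HNRNPC binds runs of U and keeps cryptic exons out of messages, HNRNPK binds C-rich sequence through KH domains, and HNRNPU is a nuclear scaffold protein. HNRNPC stood at 704 and 685 against 694 and 689 CPM on day 1 in BRD9KO against LacZ, 738 and 735 against 802 and 755 CPM on day 2, 688 and 695 against 717 and 711 CPM on day 3 and 659.6 and 673 against 721 and 729 CPM on day 5. Its groups overlapped on day 1 only. HNRNPK stood at 846 and 841 against 871 and 863 CPM, 894 and 880.5 against 909 and 923 CPM, 866 and 872 against 893 and 893 CPM and 839 and 844 against 897 and 911 CPM on the 4 days, and HNRNPU at 779.7 and 779 against 794 and 783 CPM, 851 and 836 against 871 and 869.5 CPM, 849 and 852 against 862 and 869 CPM and 769 and 771 against 815 and 805 CPM. Both genes were below their controls on every day. All 3 were called only on day 5, with log2 fold changes of -0.12 (standard error 0.023, adjusted p = 0.000922), -0.10 (standard error 0.015, adjusted p = 8.09e-05) and -0.07 (standard error 0.015, adjusted p = 0.002) in edgeR. The calls of HNRNPC and HNRNPK held in all 26 alternatives (adjusted p 1.87e-05 to 0.0159 and 1.09e-05 to 0.0273), and that of HNRNPU held in 24 of 26 alternatives (adjusted p 0.00141 to 0.321). COX20 shares 3502 exonic bases with HNRNPU on the opposite strand at a mean of 36.9 TPM. Counting by strand is not stated, so reads of such opposite-strand partners may not be told apart.

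HNRNPR, a relative of the RNA-binding protein SYNCRIP, and HNRNPUL1, a relative of HNRNPU, were also lower on day 5. HNRNPR stood at 256 and 253 against 251 and 250.3 CPM on day 1 in BRD9KO against LacZ, 245 and 251 against 251 and 249 CPM on day 2, 296 and 287 against 304 and 307 CPM on day 3 and 256 and 265 against 282 and 289 CPM on day 5. It was above its controls on day 1 and below them on days 3 and 5, with -0.13 (standard error 0.027, adjusted p = 0.00187) on day 5 in edgeR, a call that held in all 26 alternatives (adjusted p 0.00144 to 0.0466). HNRNPUL1 stood at 256 and 246 against 264 and 256 CPM, 264 and 253 against 268 and 283 CPM, 234 and 240.4 against 264 and 262 CPM and 246 and 249 against 269 and 274 CPM on the 4 days. Its groups overlapped on day 1, and it changed by -0.15 and -0.13 on the log2 scale on days 3 and 5 (adjusted p = 0.00402 and 0.0063 in edgeR). The day 3 call held in 22 of 26 alternatives (adjusted p 0.000199 to 0.191) and was lost without replicate 1 of BRD9KO day 3 or replicate 1 of LacZ day 3, and the day 5 call in 23 of 26 alternatives (adjusted p 0.00169 to 0.164) and was lost without replicate 2 of LacZ day 5. HNRNPUL2, the other relative of HNRNPU, was lower on day 3 alone at -0.17 (standard error 0.047, adjusted p = 0.0253) in edgeR, a call that held in 20 of 26 alternatives (adjusted p 0.00567 to 0.372) and was lost without any 1 of the 4 day 3 libraries. It shares 2391 exonic bases with the readthrough gene HNRNPUL2-BSCL2. The remaining HNRNP genes, HNRNPA0, HNRNPAB and HNRNPLL, were not called on any day and lay between -0.14 and 0.03 over the 4 days on the log2 scale.

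Among the SR proteins, SRSF5 moved in both directions. SRSF5 is a shuttling SR protein that promotes exon inclusion. It stood at 211 and 211 CPM in BRD9KO and 212 and 219.5 CPM in LacZ libraries on day 1, 203 and 206 against 187 and 186 CPM on day 2, 281 and 281 against 261 and 263 CPM on day 3 and 227 and 228 against 239.8 and 250.3 CPM on day 5. Both BRD9KO libraries were above the controls on days 2 and 3 and below them on days 1 and 5. The log2 fold changes were -0.03 (standard error 0.028, adjusted p = 0.776), 0.13 (standard error 0.029, adjusted p = 0.0143), 0.10 (standard error 0.027, adjusted p = 0.0198) and -0.11 (standard error 0.028, adjusted p = 0.0107) in edgeR. The effect differed between the days (adjusted p = 0.0012 in the F-test over 4 days), and the day 5 minus the day 3 effect was -0.21 (adjusted p = 0.0083), when 0.952% of all genes differed between those days. Both tests were chosen after seeing the data. The day 2 call held in 19 of 26 alternatives (adjusted p 0.011 to 0.23) and was lost without any 1 of the 4 day 2 libraries. The day 3 call held in 20 of 26 alternatives (adjusted p 0.0149 to 0.314) and was lost without any 1 of the 4 day 3 libraries. The day 5 call held in 24 of 26 alternatives (adjusted p 0.00334 to 0.137) and was lost without replicate 2 of BRD9KO day 5 or replicate 2 of LacZ day 5. On log2(TPM + 1) the day 5 difference was -0.20 (adjusted p = 0.00334 in limma).

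SRSF9, which can promote or repress exons, stood at 249 and 243 CPM in BRD9KO and 254 and 257 CPM in LacZ libraries on day 1, 239 and 239 against 241 and 249.8 CPM on day 2, 229 and 215 against 239 and 245 CPM on day 3 and 235 and 230.0 against 263 and 260.2 CPM on day 5. It was below its controls in every library. The log2 fold change was -0.12 (standard error 0.031, adjusted p = 0.0137) on day 3 and -0.17 (standard error 0.03, adjusted p = 0.000513) on day 5 in edgeR. The day 5 call held in all 26 alternatives (adjusted p 1.8e-05 to 0.0132), and the day 3 call held in 22 of 26 alternatives (adjusted p 0.00691 to 0.163) and was lost without replicate 2 of BRD9KO day 3 or replicate 2 of LacZ day 3. GATC shares 1725 exonic bases with SRSF9 on the opposite strand at a mean of 39.9 TPM. SRSF10, known to repress splicing when it loses its phosphates, stood at 191 and 191 CPM in BRD9KO and 207 and 206 CPM in LacZ libraries on day 5, or -0.11 (standard error 0.031, adjusted p = 0.019) on the log2 scale in edgeR. The groups did not overlap, and that call held in 20 of 26 alternatives (adjusted p 0.0153 to 0.171) and was lost without any 1 of the 4 day 5 libraries.

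SRSF1, SRSF2 and SRSF3 are the best studied SR proteins, and SRSF1 also acts as an oncogene in several tumors. SRSF1 stood at 316 and 323 against 343 and 338 CPM on day 1 in BRD9KO against LacZ, 369 and 374 against 396 and 384 CPM on day 2, 382 and 377 against 388 and 389 CPM on day 3 and 400.8 and 396 against 419.8 and 406 CPM on day 5. It was below its controls in every library and was not called on any day in the main test (log2 fold changes -0.09, -0.07, -0.03 and -0.05). With no filter on low counts edgeR called it lower on day 1 (-0.11, adjusted p = 0.0316). SRSF2 stood at 298 and 302 against 326 and 329 CPM, 353 and 351 against 365 and 356 CPM, 383 and 382 against 384 and 402 CPM and 392.2 and 402 against 417 and 406 CPM on the 4 days. It was lower on day 1 at -0.12 (standard error 0.026, adjusted p = 0.0339) in edgeR and not called later, when it lay between -0.05 and -0.04. The day 1 call held in 19 of 26 alternatives (adjusted p 0.000597 to 0.24). It was lost with the day's own libraries only, with limma on TPM at either pseudocount and without any 1 of the 4 day 1 libraries. MFSD11 shares 823 exonic bases with SRSF2 on the opposite strand. SRSF3 stood at 319 and 329.9 against 342 and 339 CPM, 361 and 363 against 358 and 359 CPM, 329.8 and 341 against 369.8 and 355 CPM and 355 and 369 against 379.7 and 378 CPM. It was above its controls on day 2 and below them on the other days, and it was lower on day 3 at -0.11 (standard error 0.026, adjusted p = 0.00831) in edgeR, a call that held in 22 of 26 alternatives (adjusted p 0.00319 to 0.611) and was lost without replicate 1 of BRD9KO day 3 or replicate 1 of LacZ day 3. On log2(TPM + 1) that difference was -0.05 (adjusted p = 0.607 in limma). Of the remaining SRSF genes, SRSF4, SRSF6, SRSF7, SRSF11 and both SRSF8 IDs were not called on any day. SRSF12, the least abundant member, had the highest value of any member, 0.34 (standard error 0.11, adjusted p = 0.221) on the log2 scale on day 1 in edgeR, from 11.8 and 12.9 CPM in BRD9KO and 10.2 and 9.44 CPM in LacZ libraries, and it was not called either.

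SF3B1, the largest SF3B protein and a recurrent target of mutation in blood cancers, did not separate from its controls by the test. It stood at 462 and 492 CPM in BRD9KO and 469.7 and 475 CPM in LacZ libraries on day 1, 441 and 431 against 428 and 419.8 CPM on day 2, 500.3 and 512 against 494 and 497 CPM on day 3 and 465 and 485 against 482 and 471 CPM on day 5. The groups overlapped on days 1 and 5, and the BRD9KO libraries were above the controls on days 2 and 3. Its log2 fold changes were 0.02, 0.04, 0.03 and -0.0016, each with a standard error of 0.027 to 0.028 (adjusted p = 0.585 to 0.982 in edgeR). SF3A1, which binds stem-loops of the U1 particle as well as other SF3A subunits, stood at 231 and 229 against 231 and 225 CPM on day 1 in BRD9KO against LacZ, 254 and 250.2 against 253 and 265 CPM on day 2, 253 and 257 against 261 and 261 CPM on day 3 and 238 and 234 against 246 and 234 CPM on day 5. Its groups overlapped on days 1, 2 and 5, and it was not called on any day, with log2 fold changes of 0.0096, -0.04, -0.03 and -0.03. SF3B3, which is also found in the SAGA coactivator complex, was the SF3 gene called. It stood at 254 and 249 CPM in BRD9KO and 284 and 270.3 CPM in LacZ libraries on day 5, or -0.14 (standard error 0.034, adjusted p = 0.00711) on the log2 scale in edgeR without overlap, and the call held in 22 of 26 alternatives (adjusted p 0.000636 to 0.214) and was lost without replicate 2 of BRD9KO day 5 or replicate 1 of LacZ day 5. The size depended on the scale: on log2(TPM + 1) limma gave -0.36 (adjusted p = 0.209), and the estimated length of SF3B3 on day 5 differed by 0.25 (standard error 0.16) on the log2 scale.

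The size of the BRD9 effect itself was compared between the early days (1 and 2) and the late days (3 and 5). In 7 members, all of the HNRNP family, the late effect was lower, and in 0 members it was higher. Over all genes 4.03% had a lower and 3.41% a higher late effect (7.43% either), and 7.8% of the genes over 5 log2 CPM had a lower one. At an unadjusted p under 0.05 the members higher were 0, and DESeq2 called 0 higher and 4 lower. The differences in log2 fold change were -0.14 for HNRNPH3, -0.14 for HNRNPA1, -0.10 for HNRNPDL, -0.10 for HNRNPR, -0.08 for HNRNPA3, -0.07 for HNRNPM and -0.07 for HNRNPD. Their adjusted p in edgeR were 0.016, 1.23e-05, 0.0152, 0.023, 0.0267, 0.0449 and 0.0302. HNRNPA1 was called in each of 25 alternatives and HNRNPDL in 24 of 25 alternatives (adjusted p 0.00992 to 0.067). HNRNPH3 was called in 21 of 25 alternatives (adjusted p 0.00315 to 0.369), and it lost the call without BRD9KO day 3 replicate 1 or LacZ day 3 replicate 2. The others rested on single libraries. HNRNPA3 was called in 14 of 25 alternatives (adjusted p 0.0164 to 0.184), HNRNPR in 15 of 25 alternatives (adjusted p 0.0162 to 0.254), HNRNPM in 8 of 25 alternatives (adjusted p 0.0311 to 0.312) and HNRNPD in 8 of 25 alternatives (adjusted p 0.0285 to 0.43). HNRNPA3 lost its call without replicate 2 of BRD9KO day 1, BRD9KO day 2, LacZ day 2 or LacZ day 5, or without replicate 1 of LacZ day 1, LacZ day 3, BRD9KO day 3 or BRD9KO day 5. HNRNPR lost it without replicate 1 of BRD9KO day 1 or BRD9KO day 5, or without replicate 2 of BRD9KO day 2, BRD9KO day 3, LacZ day 2 or LacZ day 5. HNRNPM lost it without any 1 of 12 libraries, all but replicate 2 of BRD9KO days 1 and 3 and replicate 1 of BRD9KO day 2 and LacZ day 2. HNRNPD lost it without any 1 of 13 libraries, all but replicate 2 of BRD9KO day 1, LacZ day 2 and LacZ day 5.

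The same RNAs also moved with time in the control cells, and these values share the LacZ libraries with the comparisons above. From day 1 to day 5 in LacZ cells, 20 members rose and 4 fell, when 12.7% of all genes rose and 12.9% fell, and 22.7% of the genes over 5 log2 CPM rose. SRSF2 rose by 0.33 and SRSF1 by 0.28 on the log2 scale (adjusted p = 1.95e-08 and 8.62e-08 in edgeR), and HNRNPD rose by 0.20 and HNRNPR by 0.19 (adjusted p = 3.71e-07 and 2.99e-05). HNRNPA1 and HNRNPH3 were among the 4 that fell, at -0.09 and -0.18 (adjusted p = 0.000233 and 0.000932), beside SF3B14 and SRSF8 (ENSG00000180771). The count of 24 members called fell to 16 without LacZ day 1 replicate 2.

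RSEM's gene length is the mean length of a gene's transcripts weighted by their estimated shares, so it moves with the isoform makeup. It was compared for the 38 members with more than 1 transcript, among 12743 genes, with limma. On days 1, 2, 3 and 5, 0 of 38 members were called, and the smallest adjusted p among them was 0.977, 0.880, 0.835 and 0.616. At an unadjusted p under 0.05 there were 1, 4, 4 and 1 members, when 4.79%, 5.27%, 5.01% and 5.31% of all genes were, and limma without a trend also called 0. Adjusted calls over all genes were 0.00785%, 0.0157%, 0% and 0.00785%. The median member's standard error was 0.026 on the log2 scale. For HNRNPA1 the log2 difference in length on day 5 was -0.02 (standard error 0.015), so no change of its isoform makeup was detectable in this summary, which does not see switches between isoforms of like length.

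Core promoters were read from 250 bases before to 50 after the start of 1 reference transcript per gene, the MANE Select transcript where the annotation marks one, for the 41 members that have a position on GRCh37. That start can lie inside the span of the whole gene, as it does for HNRNPA1 and SRSF5. A set of 5 short motifs were searched on both strands, and the choice of motifs was made with earlier results of these data known. A CCAAT box (CCAAT) was present in 19 of 41 member promoters (46.3%), against 36.3% of the 12138 promoters of tested protein-coding genes. By family it was in 15 of 21 HNRNP, 2 of 11 SRSF and 2 of 9 SF3A or SF3B promoters. The letters CCGGAAG, bound by ETS factors, were in 11 of 41 (26.8%, against 19.9% of all), of which 6 of 9 were SF3A or SF3B, 3 of 21 HNRNP and 2 of 11 SRSF. Among the 16 members lower on day 5, 10 held CCAAT and 2 held CCGGAAG, and among the other 25, 9 and 9 did. This split was not separated from family, because 12 of the 16 were HNRNP genes. HNRNPA0, HNRNPA3, HNRNPAB, HNRNPH2, HNRNPLL and HNRNPUL2 held CCAAT and were not called on day 5. HNRNPD, HNRNPH3 and HNRNPM were lower on day 5 without it. An E-box (CACGTG) was in 6 of 41 (14.6%, against 10.3%), an AP-1 site (TGACTCA) in 1 (2.44%, against 2.4%) and a cyclic AMP response element (TGACGTCA) in 0 (against 3.52%). These are matches of letters and were not tested. The HNRNPA1 promoter held 6 CCAAT matches. With HNRNPA1 counted, 17 of the 12138 promoters (0.14%) held at least as many, and no other member promoter did.

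The following windows of 30 bases are shown 5′ to 3′ on the strand of the gene with the motif in capitals, CCAAT or its reverse complement ATTGG, for HNRNPA1 and for HNRNP genes that were lower on day 5.
HNRNPA1 (chr12:54674307-54674336, plus strand): attactcgggaaCCAATggactccaagggg
HNRNPA1 (chr12:54674383-54674412, plus strand): tggcaccacaggCCAATagcagggggaagc
HNRNPA1 (chr12:54674443-54674472, plus strand): gggcggagtctaCCAATgccgaaagcgagg
HNRNPDL (chr4:83351655-83351684, minus strand): gcgccagcgccgATTGGccgccgtcaggcc
HNRNPC (chr14:21737638-21737667, minus strand): aaaaacgcacagCCAATaggaagattctca
HNRNPK (chr9:86595171-86595200, minus strand): aagccctggcagCCAATagggcgcgacggc
HNRNPL (chr19:39340729-39340758, minus strand): cgtgggcaatgtCCAATaagcgcgcaaggc

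HNRNPD, SRSF5 and the SF3A genes carry the other motif, CCGGAAG or its reverse complement CTTCCGG, again in capitals, and HNRNPD and SRSF5 were the only members lower on day 5 that did.
HNRNPD (chr4:83295309-83295338, minus strand): agctcacgacaCTTCCGGttccttttaaag
SRSF5 (chr14:70233791-70233820, plus strand): caggggcgtccCCGGAAGtgacgtaggacg
SF3A1 (chr22:30752914-30752943, minus strand): aggggacggtcCCGGAAGtgcgccagtcgt
SF3A2 (chr19:2236803-2236832, plus strand): tctcatttgccCCGGAAGtgctttctttgc
SF3A3 (chr1:38455744-38455773, minus strand): gtcccggggcaCTTCCGGcactcgcggaac

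**Figure D5:**
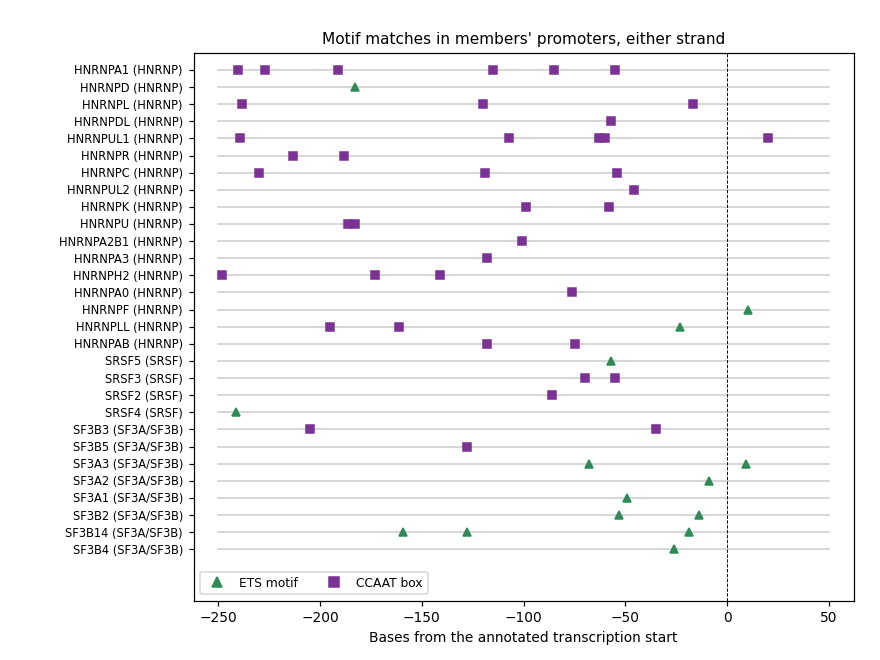
Matches to the CCAAT box (purple squares) and the ETS motif (green triangles) on either strand in members' promoters, by distance in bases from the start of the reference transcript (dashed line). Genes are listed by family and, within a family, by day 5 fold change; members without a match are left out. CCAAT was matched in 15 of 21 HNRNP promoters, against 36.3% of all promoters searched. The ETS motif was matched in 6 of 9 SF3A or SF3B promoters, against 19.9%. The motifs were chosen with earlier results known, and the matches were not tested.

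Other splicing genes were described from 6 lists. Of the 25 hnRNP-like RNA-binding proteins outside the symbol rule, 1, 3, 9 and 12 were called lower on days 1, 2, 3 and 5, when 0.266%, 1.58%, 5.85% and 7.45% of all genes were lower and 13.2% of those over 5 log2 CPM were on day 5. On day 5 the list had 1 gene higher, when 7.53% of all genes were, and a median of -0.07 on the log2 scale. PTBP1, the polypyrimidine tract binding repressor of exons, was at -0.10 (adjusted p = 0.000354) and CIRBP, a cold-inducible RNA-binding protein, at -0.22 (adjusted p = 0.000454), both in edgeR on day 5. The higher gene was PCBP4, a poly(C) binding protein, at 0.20 (adjusted p = 0.0198). CIRBP kept its call in 26 of 26 alternatives, and PTBP1 in 24. PCBP4 kept it in 21 of 26 alternatives and not without replicate 2 of BRD9KO day 5 or replicate 2 of LacZ day 5.

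The counts called on day 5 in the other lists are to be read against 7.45% of all genes lower, 13.2% of those over 5 log2 CPM lower and 7.53% of all genes higher. For days 1, 2 and 3 the shares of all genes were 0.266%, 1.58% and 5.85% lower and 0.273%, 1.12% and 4.59% higher. Among genes over 5 log2 CPM, 11.1% were lower on day 3. Of 24 SR-related proteins and SR kinases, 1 was higher and 2 were lower: SRPK2, a kinase of SR proteins, at 0.17 (adjusted p = 0.021), CLK1, a nuclear kinase of SR proteins, at -0.18 (adjusted p = 0.00941) and PNN at -0.10 (adjusted p = 0.0425) in edgeR. SRPK2 was called in 19 of 26 alternatives and not without any 1 of the 4 day 5 libraries. CLK1 was called in 20 of 26 alternatives and not without replicate 1 of BRD9KO day 5, replicate 2 of BRD9KO day 5 or replicate 1 of LacZ day 5, and it was at -0.08 on log2(TPM + 1) (adjusted p = 0.689 in limma). PNN was called in 17 of 26 alternatives and not without any 1 of the 4 day 5 libraries. On days 1, 2 and 3 the members of that list called were 0, 2 and 1, each lower. Of 27 U1, U2, Sm and U2AF proteins, 2 were called, both lower, U2SURP at -0.10 (adjusted p = 0.0192) and SNRPE at -0.15 (adjusted p = 0.0357), and 4 were lower on day 3. U2SURP was called in 18 of 26 alternatives and not without replicate 1 of BRD9KO day 5, replicate 2 of BRD9KO day 5 or replicate 1 of LacZ day 5, and it was at -0.03 on log2(TPM + 1) (adjusted p = 0.837 in limma). SNRPE was called in 18 of 26 alternatives and not without any 1 of the 4 day 5 libraries.

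Of 41 proteins of the U4/U6 and U5 particles and the catalytic spliceosome, 1 was higher and 5 were lower on day 5, and 3 were lower on day 3. NHP2L1, a protein of the U4 particle, was at 0.17 (adjusted p = 0.00806), SART3, a recycling factor, at -0.19 (adjusted p = 0.00108), SNRNP200, the helicase that unwinds U4 from U6, at -0.08 (adjusted p = 0.00742) and PRPF8, the scaffold of the catalytic core, at -0.09 (adjusted p = 0.0116) in edgeR. SART3 was called in 24 of 26 alternatives. NHP2L1 was called in 22 of 26 alternatives and not without replicate 1 of BRD9KO day 5 or replicate 1 of LacZ day 5. SNRNP200 was called in 21 of 26 alternatives and not without replicate 2 of BRD9KO day 5 or replicate 2 of LacZ day 5, and it was at -0.03 on log2(TPM + 1) (adjusted p = 0.726 in limma). PRPF8 was called in 21 of 26 alternatives and not without replicate 2 of BRD9KO day 5, replicate 1 of LacZ day 5 or replicate 2 of LacZ day 5. Of 21 tissue regulators of alternative splicing, 1 was higher and 1 lower on day 5, and 1 was lower on day 2 and 1 higher on day 3. The day 5 genes were RBM47 at 0.18 (adjusted p = 0.0391) and TIA1 at -0.21 (adjusted p = 0.00206) in edgeR. RBM47 was called in 18 of 26 alternatives and not without replicate 2 of BRD9KO day 5, replicate 1 of LacZ day 5, replicate 2 of LacZ day 5 or replicate 1 of LacZ day 2, and TIA1 in 24 of 26 alternatives. Of 19 genes of the exon junction complex and nonsense-mediated decay, 1 was higher and 2 were lower, SMG1, the kinase of that pathway, at 0.17 (adjusted p = 0.000222), PNRC2 at -0.17 (adjusted p = 0.000716) and CASC3 at -0.16 (adjusted p = 0.0091) in edgeR. SMG1 and PNRC2 kept their calls in 24 of 26 alternatives, and on log2(TPM + 1) limma put PNRC2 at -0.03 (adjusted p = 0.916). CASC3 was called in 21 of 26 alternatives and not without replicate 1 of BRD9KO day 5, replicate 1 of LacZ day 5 or replicate 2 of LacZ day 5.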

How the data were processed

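RNA was measured by sequencing in 16 libraries, 2 for each guide and day. Per the study's methods, the authors made libraries from total RNA with a NEBNext Ultra kit, aligned reads to hg19 with STAR and estimated levels with RSEM; versions and counting by strand are not given in the sources used here. The authors' RSEM tables list 57820 genes. The deposited expected counts, estimated reads per gene, were rounded for testing, and the deposited TPM values were used for levels between genes. The deposited gene lengths and posterior SDs came from the same runs.

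Counts were filtered with filterByExpr (minimum count 10, minimum total 15), normalized by TMM and fitted over all 16 libraries with a mean per group in edgeR 4.0.16 (glmQLFit and glmQLFTest, R 4.3.3), with Benjamini-Hochberg adjustment over the 15027 genes tested. The study's methods name DESeq2 without a design, so DESeq2 1.42.0 was an alternative. The fit had 8 residual degrees of freedom and a common biological coefficient of variation of 0.023. Gene lengths were compared on the log2 scale with limma 3.58.1. Replicate numbers were not taken as pairs. To look for pairing, each gene's group mean of log2 CPM was subtracted from its value in every library. What remained in same-numbered BRD9KO and LacZ libraries of a day correlated at -0.0435, -0.118, 0.101 and 0.177 over 6273 abundant genes.

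The members and gene lists were chosen with earlier results of these data known. Values in all libraries were given for BRD9 as a range and for members called on at least 2 days, members called late against early, and SRSF1, SRSF2, SRSF3, HNRNPA1, HNRNPA2B1, HNRNPC, HNRNPK, HNRNPU, SF3A1 and SF3B1. Other members were named after their values were seen, and each list gave up to 3 called genes per direction on day 5. Positions and promoters were read from GRCh37 with GENCODE annotation lifted to it, and 41 of 43 members matched; a promoter was placed at the start of the MANE Select transcript or, where none is marked, of the Ensembl canonical one, then of an APPRIS principal one, then of the longest. The edgeR step was tested on simulated data. Alternatives were other size factors, DESeq2, other filters, limma on log2-transformed TPM (pseudocount 1 or 0.1), own libraries only, replicate blocks, each library left out, and pooled pseudogene copies. For a call on a given day, leaving out a library of another day changes only the filter, the normalization and the shared spread. The tallies of alternatives that kept a call include such runs, which bear less on that call.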

Additional observations from a re-analysis of the deposited data

Results flagged for a closer look

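The effect of BRD9 deletion differed between days in tests of the difference itself, all by edgeR. The day 5 minus the day 3 effect was -0.2098 on the log2 scale for SRSF5, which was above its controls on day 3 and below them on day 5, and -0.1161 for HNRNPA1. The mean effect of days 3 and 5 minus that of days 1 and 2 was -0.1403 for HNRNPA1, -0.145 for HNRNPH3, -0.1036 for HNRNPDL, -0.1031 for HNRNPR, -0.08251 for HNRNPA3, -0.07397 for HNRNPM and -0.06983 for HNRNPD. The calls of HNRNPR, HNRNPA3, HNRNPM and HNRNPD rested on single libraries, and DESeq2 did not call HNRNPR, HNRNPM or HNRNPD. Over all genes 7.43% differed between the early and the late days and 0.952% between days 3 and 5. The day 5 minus day 3 comparison was chosen after seeing the data.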

How the results depend on the processing

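No direction of a called member reversed under any alternative run. The number of members called on day 1 was 3, and 5 with DESeq2, 6 with no filter on low counts, 1 with limma on TPM at either pseudocount, 0 with the day's own libraries and 0 to 3 with single libraries left out. On day 2 it was 3, and 5 with DESeq2, 1 with limma at either pseudocount, 1 with its own libraries and 1 to 4 with libraries left out. On day 3 it was 11, and 2 with limma at either pseudocount and 5 to 11 with libraries left out, the lowest without LacZ day 3 replicate 1. On day 5 it was 16, and 10 with limma at either pseudocount and 13 to 17 with libraries left out. For late against early it was 7, and 4 with DESeq2, 2 with no filter, 2 with limma at either pseudocount and 3 to 8 with libraries left out, the lowest without BRD9KO day 2 replicate 2 or BRD9KO day 5 replicate 1. For LacZ day 5 against day 1 it was 24, and 16 to 24 with libraries left out. Where leaving out a library left 1 sample in a group, that sample was assumed to vary like the others. With replicate number as a block within days, the pairing that the labels' numbers would give, the counts were 2, 4, 11 and 18 on days 1, 2, 3 and 5, 7 for late against early and 18 for LacZ, and with a block across days 3, 3, 11, 17, 8 and 25. The numbers are not known to pair the libraries. Pooling pseudogene copies gave 3, 3, 11, 17, 7 and 24. The count of members with a changed transcript length was 0 under each alternative run. With limma on TPM at either pseudocount, HNRNPA1 and HNRNPDL were the only members to keep their day 3 call. On day 5 limma did not call HNRNPA2B1, HNRNPM, HNRNPU, HNRNPUL1, SRSF10 or SF3B3, so those calls depended on the measure too. The cause of these differences was not tested. With 2 libraries per group, precision rests on a spread shared by all groups.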
